A study of Mus musculus with 45 samples.

Results

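CT26 and Hepa1-6, the cultured mouse tumour lines of this study, were compared under the solvent control DMSO, across all genes. CT26 is a colon carcinoma line, and Hepa1-6 is labelled a liver line and is known as a hepatoma line. The comparison used 6 RNA sequencing libraries, 3 of CT26 and 3 of Hepa1-6, out of 45 labelled samples, and they were chosen only by cell line and treatment. Every one of the 6 is labelled as wild type, as exposed to DMSO for 48 hours and with the same batch date, so neither line carried a hairpin or received a compound other than the solvent. The study set CT26 and Hepa1-6 side by side under a compound named stk and under knockdown of Soat1, an enzyme that esterifies cholesterol, and the DMSO libraries are the controls of the stk experiment. Each tissue is represented by 1 line, and CT26 comes from BALB/c mice whereas Hepa1-6 comes from C57L mice. Tissue of origin, mouse strain and the history of the line therefore cannot be told apart here. The labels do not say whether the 3 libraries of a line came from separate cultures, so p-values measure only the spread between these libraries, which may be technical.

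As background, hepatocytes secrete most plasma proteins under the control of a network of nuclear factors that includes HNF4 and the FOXA proteins, and hepatoma lines keep that programme to varying degrees. Epithelial cells are held together by keratins, claudins and desmosomes, whereas mesenchymal cells express vimentin, fibrillar collagens and factors of the TWIST and SNAIL families. Interferons act through receptors at the cell surface on antiviral genes that share a promoter element, and Wnt signals act through beta-catenin and TCF factors on targets such as Axin2, which feed back on the pathway.

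The 6 libraries were close to each other within a line and far apart between lines. The deposited unit was FPKM, in which fragments are counted relative to transcript length and library depth, so genes stand on a scale per length. Their sums ran from 332119.0 to 335066.6 in the CT26 libraries and from 324154.2 to 327069.8 in the Hepa1-6 libraries. Read totals are not in the table, so counting errors are unknown. The smallest steps of the values gave depths, relative to the first CT26 library, of 0.895 to 1.09 in CT26 and 0.943 to 0.998 in Hepa1-6. On log2(FPKM + 1), the Pearson correlation across the 12332 genes tested lay between 0.991 and 0.992 for pairs of CT26 libraries and between 0.991 and 0.992 for pairs of Hepa1-6 libraries, against 0.739 to 0.745 for pairs of 1 library from each line. Between 27 and 42 genes per CT26 library, and between 34 and 38 per Hepa1-6 library, stood at least 2-fold away from both other libraries of the line.

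Most of the genes tested differed between the lines. A gene was tested where it reached 1 FPKM in at least 3 of the 6 libraries, and called where the limma test gave a Benjamini-Hochberg adjusted p under 0.05 and a difference of at least 2-fold on the log2(FPKM + 1) scale. Of 12332 genes tested among 55335 in the table, 9622 (78.0%) passed the adjusted p alone. Calls numbered 3143 (25.5%), with 1546 genes higher in CT26 (12.5%) and 1597 lower in CT26 (13.0%). The median absolute log2 difference of the genes tested was 0.49, against median standard deviations between libraries of 0.0668 in CT26 and 0.0682 in Hepa1-6 on the same scale. Among the genes that passed the adjusted p, 1191 differed by at least 4-fold, 238 by at least 16-fold and 109 by at least 32-fold. Of the calls, 1305 higher and 1398 lower genes were protein-coding. The pseudocount of 1 shrinks differences of genes with low FPKM. Of the calls, 354 genes were listed at 0 in all 3 CT26 libraries and 212 in all 3 Hepa1-6 libraries, and for these no fold is given, since the fitted difference depends on the pseudocount. Log2 differences given below for genes close to 0 in 1 line depend on the pseudocount as well. An exact 0 in a table without counts can be a failed estimate, so such genes are described as listed at 0.

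**Figure D1:**
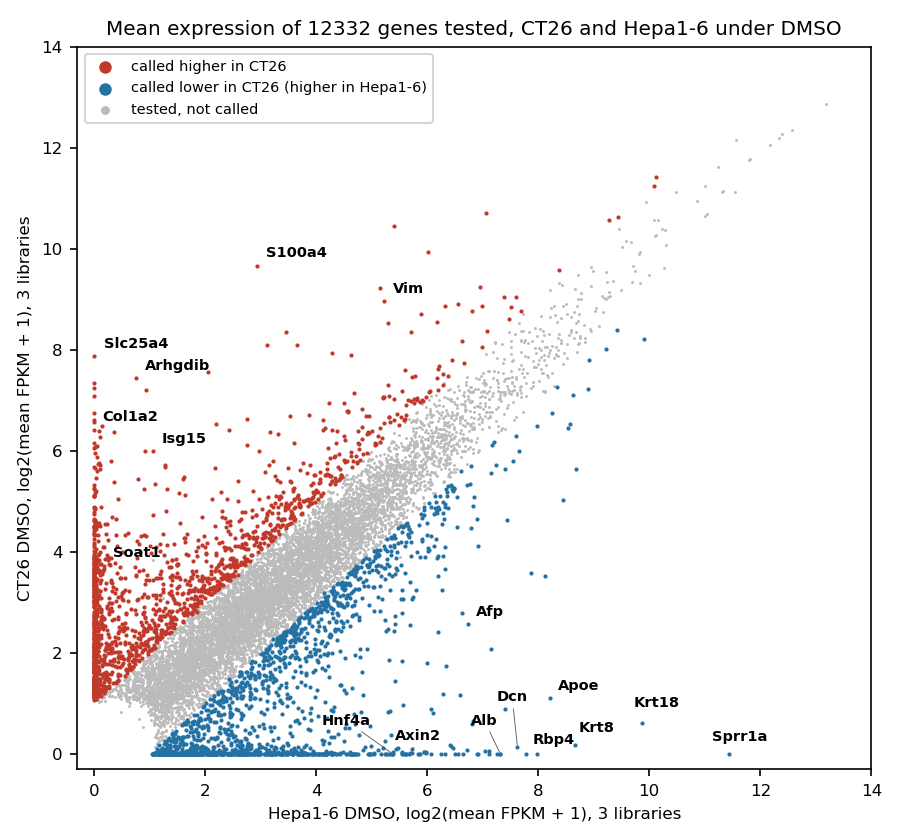
Mean expression of the 12332 genes tested, with CT26 under DMSO on the vertical axis and Hepa1-6 under DMSO on the horizontal axis, both as log2(mean FPKM + 1) over 3 libraries. The 1546 genes called higher in CT26 lie above the diagonal band and the 1597 called lower lie below it, with many genes along each axis that were near or at 0 in 1 line.

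Hepatocyte markers were present in Hepa1-6, and colon markers were nearly absent in CT26. Of 18 hepatocyte markers, 1 reached 1 FPKM in all 3 CT26 libraries and 10 did so in all 3 Hepa1-6 libraries. Their summed level was 5.18 to 6.07 FPKM in CT26 and 436 to 488 FPKM in Hepa1-6. The label of CT26 was not matched by colon markers: of 12, only Krt20, a keratin of differentiated intestinal cells, reached 1 FPKM in all CT26 libraries, with a summed level of 26.7 to 30.5 FPKM, whereas 4 did so in Hepa1-6, with 278 to 294 FPKM. Cdx1, a homeobox factor of the intestine, Slc26a3, a chloride exchanger of colon cells, and Car1, a carbonic anhydrase, were listed at 0 in all 6 libraries. Cdx2, the other caudal homeobox factor, had 0.445, 0.533 and 0.537 FPKM in CT26 and 0, 0.0452 and 0 FPKM in Hepa1-6, too low to be tested. None of 8 general epithelial markers reached 1 FPKM in CT26, with a summed level of 0.653 to 0.786 FPKM, whereas 5 did in Hepa1-6, with 1362 to 1413 FPKM. Of 10 fibroblast or mesenchymal markers, 4 reached 1 FPKM in CT26, at a summed 155 to 170 FPKM, and only Dcn did in Hepa1-6, at a summed 197 to 199 FPKM. Leukocyte and endothelial markers were low, with summed leukocyte markers of 3.55 to 4.08 FPKM in CT26 and 6.40 to 8.01 FPKM in Hepa1-6, and summed endothelial markers of 0.394 to 0.555 FPKM in CT26 and 0.124 to 0.15 FPKM in Hepa1-6. Cholangiocyte markers summed to 361 to 376 FPKM in CT26 and 226 to 229 FPKM in Hepa1-6, most of it from Spp1 (osteopontin, a secreted protein that many other cells make), at 368 ± 7.72 FPKM in CT26 and 201 ± 3.09 FPKM in Hepa1-6. Of these 6 markers, 1 reached 1 FPKM in all CT26 libraries and 4 did in all Hepa1-6 libraries. In bulk RNA, fewer cells of a type and less RNA per cell cannot be told apart.

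**Figure D2:**
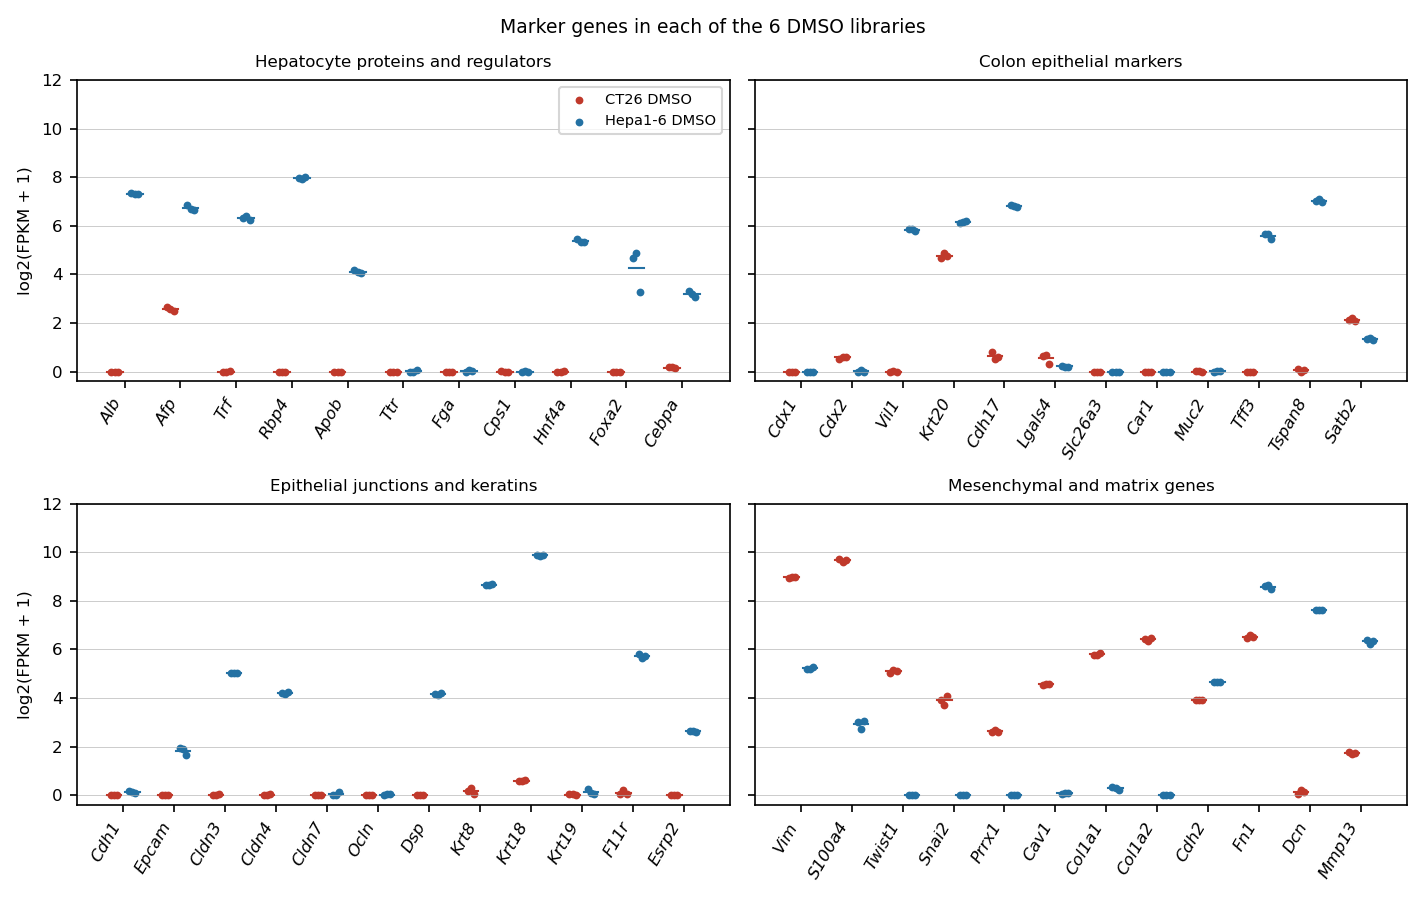
Expression of marker genes in each of the 6 libraries as log2(FPKM + 1), with the 3 CT26 libraries left of the 3 Hepa1-6 libraries for each gene and a line at the mean. Alb, Rbp4, Hnf4a, Krt8, Krt18, Cldn3 and Vil1 stood high in Hepa1-6 and near 0 in CT26, Ttr, Cps1, Cdx1 and Cdh1 stood near 0 in both, and Vim, S100a4, Twist1, Snai2 and the type I collagen genes were higher in CT26.

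Plasma proteins of the liver were lower in CT26 wherever they could be tested, with Fetub below the 2-fold limit. Of 31 listed hepatocyte secreted proteins, 11 were high enough to be tested, 0 were called higher and 10 were called lower in CT26, where 13.0% of all genes tested were lower. The median log2 difference of the 11, which includes genes listed at 0 in CT26, was -4.16, against -0.005 over all genes tested. A gene expressed in 1 line can pass the filter only through that line, so such counts describe the lists and test nothing. Alb (albumin, the main plasma protein, GRCm38 chromosome 5, 90460897 to 90476602) was listed at 0 in all 3 CT26 libraries, against 164, 156 and 157 FPKM in the Hepa1-6 libraries. Rbp4, the plasma carrier of retinol, was likewise listed at 0 in CT26, against 249, 243 and 259 FPKM in Hepa1-6. Afp, the fetal counterpart of albumin that liver tumours often express, had 5.24, 4.92 and 4.69 FPKM in CT26 and 114, 102 and 101 FPKM in Hepa1-6. All 3 genes separated the lines without overlap, and only Afp of the 3 had a level above 1 FPKM in CT26. The log2 difference of Afp was -4.16 (SE 0.0611, limma adjusted p = 1.06e-08). Trf, the iron carrier transferrin, averaged 0.00271 ± 0.00470 FPKM in CT26 and 78.9 ± 5.21 FPKM in Hepa1-6 (SD, n = 3 each). Other plasma proteins were near 0 in both lines. Ttr, which carries thyroid hormone, was listed at 0 in CT26 and averaged 0.0145 FPKM in Hepa1-6, and Apoa1, the main protein of high-density lipoprotein, averaged 0.375 ± 0.244 FPKM in CT26 and 0.0693 ± 0.0460 FPKM in Hepa1-6. Of the 31 listed genes, 19 were below 1 FPKM in all 6 libraries.

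Nuclear factors of the hepatocyte network were also lower in CT26. Of 21 listed, 15 were tested, with 0 called higher and 12 called lower in CT26, at a median log2 difference of -1.75. Among all genes tested, 13.0% were called lower. Hnf4a, the nuclear receptor at the centre of the network (chromosome 2, 163506808 to 163572910), had 0, 0 and 0.00973 FPKM in CT26 and 42.9, 39.6 and 38.95 FPKM in Hepa1-6. It was close to 0 in every CT26 library and present in every Hepa1-6 library, with a log2 difference of -5.37 (SE 0.0534). Foxa2 and Foxa3, forkhead factors that open liver chromatin, were listed at 0 in all CT26 libraries. In Hepa1-6, Foxa2 had 24.5, 28.2 and 8.79 FPKM, so the third library stood well below the others, and Foxa3 had 20.4, 17.2 and 18.4 FPKM. Foxa1, the third forkhead member, went the other way below the 2-fold limit, with 6.13 ± 0.406 FPKM in CT26 and 2.69 ± 0.253 FPKM in Hepa1-6 (SD, n = 3 each; log2 difference 0.95, limma adjusted p = 2.64e-05). Cebpa, which drives metabolic genes of the liver, averaged 0.120 ± 0.0215 FPKM in CT26 and 8.17 ± 0.701 FPKM in Hepa1-6.

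Further liver genes were called in both directions, where 12.5% of all genes tested were called higher and 13.0% lower in CT26. Of 32 coagulation and complement genes in the table, 8 were tested, with 1 called higher (Masp1, a protease of the lectin pathway) and 6 called lower in CT26. C3, the central complement component, averaged 0.0295 ± 0.0275 FPKM in CT26 and 18.3 ± 0.490 FPKM in Hepa1-6, a log2 difference of -4.23. Of 27 lipoprotein and lipid handling genes, 16 were tested, with 3 called higher and 6 called lower in CT26. Lrp1, a large endocytic receptor, was called higher in CT26, at 41.3 ± 0.587 FPKM against 5.01 ± 0.418 FPKM in Hepa1-6. Apoe, a protein of lipoprotein particles, had 0.950, 1.26 and 1.22 FPKM in CT26 and 225, 329 and 328 FPKM in Hepa1-6 (log2 difference -7.09). Of 30 metabolic enzymes of hepatocytes, 24 were too low to test, and of the other 6, Adh1, an alcohol dehydrogenase, was called higher and 3 were called lower in CT26. The urea cycle enzyme Ass1 averaged 0.0256 FPKM in CT26 and 6.74 FPKM in Hepa1-6, whereas Cps1, which starts that cycle, averaged 0.00309 FPKM in CT26 and 0.00328 FPKM in Hepa1-6.

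Keratins, junction proteins and most detected intestinal genes were also lower in CT26. Of 32 epithelial junction and keratin genes, 16 were tested, 0 were called higher and 14 were called lower in CT26, at a median log2 difference of -2.41. The share called lower among all genes tested was 13.0%. Krt18, a keratin of simple epithelia, had 0.486, 0.520 and 0.558 FPKM in CT26 and 951, 914 and 945 FPKM in Hepa1-6. Its partner Krt8 had 0.140, 0.235 and 0.0341 FPKM in CT26 and 400.1, 397 and 415 FPKM in Hepa1-6. No library of either line came near the other line, and the log2 differences were -9.27 (SE 0.0329, limma adjusted p = 1.71e-10) and -8.48 (SE 0.0674, limma adjusted p = 1.53e-09). The tight junction gene Cldn3 averaged 0.0125 FPKM in CT26 and 31.9 FPKM in Hepa1-6, and Dsp, which anchors desmosomes, averaged 0.00503 FPKM in CT26 and 17.1 FPKM in Hepa1-6. Cdh1, the classical epithelial cadherin, was low in both, listed at 0 in CT26 and at 0.131, 0.0952 and 0.0649 FPKM in Hepa1-6. Tjp1, a scaffold of tight junctions, was not called, with 22.8 ± 0.517 FPKM in CT26 and 30.8 ± 1.01 FPKM in Hepa1-6. Of 29 colon epithelial genes, 6 were tested, with 0 called higher and 5 called lower in CT26. Cdh17, a cadherin of intestine and of some liver tumours, had 0.768, 0.423 and 0.522 FPKM in CT26 and 116, 111 and 109 FPKM in Hepa1-6. Vil1, the microvillus protein villin, had 0, 0.0139 and 0 FPKM in CT26 and 57.6, 57.5 and 54.0 FPKM in Hepa1-6. Krt20 had 24.5, 28.7 and 26.4 FPKM in CT26 and 68.98, 69.95 and 71.7 FPKM in Hepa1-6, so even the colon marker present in CT26 was lower there (log2 difference -1.37).

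Mesenchymal genes ran in the opposite direction. Of 30 listed, 23 were tested, and 16 were called higher and 0 lower in CT26, at a median log2 difference of 1.24, where 12.5% of all genes tested were higher. Vim, the intermediate filament vimentin, had 496, 505 and 499 FPKM in CT26 and 35.4, 36.1 and 37.8 FPKM in Hepa1-6. The libraries of each line lay within a narrow band, and the log2 difference was 3.74 (SE 0.0293, limma adjusted p = 1.53e-09). Twist1, a factor that represses epithelial genes, had 32.1, 34.99 and 33.6 FPKM in CT26 and was listed at 0 in all Hepa1-6 libraries. Snai2, which acts in a similar way, had 14.1, 12.1 and 16.2 FPKM in CT26 and was likewise listed at 0 in Hepa1-6. Cav1, the coat protein of caveolae, averaged 22.7 ± 0.348 FPKM in CT26 and 0.0614 ± 0.0145 FPKM in Hepa1-6. Snai1, a relative of Snai2, averaged 10.9 ± 0.905 FPKM in CT26 and 11.8 ± 0.592 FPKM in Hepa1-6, and Zeb1, another repressor of epithelial genes, averaged 3.46 ± 0.850 FPKM in CT26 and 2.78 ± 0.484 FPKM in Hepa1-6. The libraries of the lines overlapped for both, and the limma adjusted p was 0.163 for Snai1 and 0.216 for Zeb1. Cdh2, the cadherin of mesenchymal cells, was lower in CT26 below the 2-fold limit, at 14.1 ± 0.138 FPKM against 24.1 ± 0.0855 FPKM in Hepa1-6. Of 13 fibroblast markers, 7 were tested, with 6 called higher and 1 called lower (Dcn) in CT26, and several are also on the mesenchymal and matrix lists. Their part in the result was not tested.

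Matrix genes were called in both directions, with fibrillar collagens higher and decorin and Mmp13 lower in CT26. Of 41 matrix and remodelling genes, 27 were tested, with 8 called higher and 9 called lower in CT26. Among all genes tested, 25.5% were called in either direction. Col1a1, a chain of type I collagen, had 54.4, 53.04 and 56.6 FPKM in CT26 and 0.284, 0.243 and 0.171 FPKM in Hepa1-6. Col1a2, the other chain, had 85.7, 79.4 and 88.5 FPKM in CT26 and 0.00414, 0.00841 and 0 FPKM in Hepa1-6. Col3a1 and Col5a1, of the further fibrillar types, averaged 11.4 and 23.5 FPKM in CT26, against 0.00320 and 0.0101 FPKM in Hepa1-6. All of these collagen genes were called higher in CT26, with log2 differences of 5.50, 6.41, 3.63 and 4.60. In the other direction, Dcn, the collagen-binding proteoglycan decorin, had 0.0455, 0.148 and 0.0927 FPKM in CT26 and 197, 197 and 196 FPKM in Hepa1-6. Mmp13, a collagenase, averaged 2.35 ± 0.102 FPKM in CT26 and 79.7 ± 4.50 FPKM in Hepa1-6. Fn1, fibronectin, was abundant in both but lower in CT26, with 88.7, 97.1 and 89.4 FPKM in CT26 and 385, 398 and 360.2 FPKM in Hepa1-6 (log2 difference -2.04). The basement membrane collagens Col4a1 and Col4a2 were not called, with log2 differences of 0.39 and 0.30.

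Homeobox genes of the Hox clusters, which mark position along the body axis, were mostly too low to test. Of 39 listed, 27 stayed below 1 FPKM in all 6 libraries, and 8 of the 9 tested were called higher in CT26. The share called higher among all genes tested was 12.5%. Hoxc6 had 10.3, 10.3 and 9.69 FPKM in CT26 and was listed at 0 in Hepa1-6, and Hoxd8 had 2.79, 3.55 and 2.69 FPKM in CT26 and was also listed at 0 in Hepa1-6. Hoxa10 was the exception, with 5.84 ± 0.777 FPKM in CT26 and 9.94 ± 0.551 FPKM in Hepa1-6 (log2 difference -0.68, not called). Run against a 2-fold difference, the limma test left 5 of the 8 calls, without Hoxa6 among others.

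The protein-coding genes with the widest gaps added further cell functions. Among the 15 most strongly higher in CT26, Slc25a4, which exchanges ADP and ATP across the inner mitochondrial membrane, had 239, 233 and 233 FPKM in CT26 and was listed at 0 in Hepa1-6. S100a4, a calcium-binding protein of motile cells, had 842, 781 and 817 FPKM in CT26 and 7.13, 5.56 and 7.42 FPKM in Hepa1-6, a log2 difference of 6.73 (SE 0.0952, limma adjusted p = 9.21e-09). Serpinh1, the chaperone of collagen folding, had 199, 195 and 89.3 FPKM in CT26, where the third library stood below the others, and was listed at 0 in Hepa1-6. Others of the 15 bind or regulate actin. Tmsb4x, which binds actin monomers and is expressed by most cells, had 183, 129 and 144 FPKM in CT26 and was listed at 0 in Hepa1-6. Fscn1, which bundles actin filaments, had 92.7, 95.9 and 101 FPKM in CT26 and 0.0175, 0 and 0 FPKM in Hepa1-6. Arhgdib, a regulator of small GTPases best known from blood cells, had 189, 173 and 158 FPKM in CT26 and 0.449, 0.460 and 1.17 FPKM in Hepa1-6. Cd34, a surface sialomucin of blood progenitors and vessels, averaged 94.7 ± 2.60 FPKM in CT26 and 0.00236 ± 0.00409 FPKM in Hepa1-6, and Itgb7, an integrin chain of lymphocytes, averaged 76.1 ± 4.45 FPKM in CT26 and 0.0813 ± 0.0254 FPKM in Hepa1-6. Most listed markers of blood or vessel cells were too low to test. Of 20 leukocyte markers, 2 were tested, with 0 called higher and 1 called lower in CT26 (Csf1r, the receptor of CSF1), and of 12 endothelial markers only Esam, a junction protein, was tested and called lower, at 0.0404 ± 0.0367 FPKM in CT26 and 11.4 ± 0.546 FPKM in Hepa1-6. The shares called among all genes tested were 12.5% higher and 13.0% lower, and so few tested markers say little about either list.

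At the other end, Sprr1a had the widest gap of the protein-coding genes tested on the log2(FPKM + 1) scale. Sprr1a, a small proline-rich protein that is cross-linked in the envelope of squamous cells, was listed at 0 in all CT26 libraries, against 2840.0, 2732 and 2752 FPKM in the Hepa1-6 libraries. Tff2, a trefoil peptide of mucous surfaces, was listed at 0 in CT26, against 226, 224 and 210.4 FPKM in Hepa1-6. Both were abundant in every Hepa1-6 library, and neither is a gene of normal hepatocytes. Igfbp3 and Igfbp1, binding proteins of insulin-like growth factors, were listed at 0 in CT26, against 147, 157 and 151 FPKM for Igfbp3 and 122, 117 and 123 FPKM for Igfbp1 in Hepa1-6. Stra6, the cell surface receptor of RBP4, had 0.00772, 0.0584 and 0.0566 FPKM in CT26 and 136, 140.1 and 138 FPKM in Hepa1-6, so receptor and ligand were both high in Hepa1-6. Perp, a membrane protein of desmosomes and a p53 target, was listed at 0 in CT26, against 142, 138 and 133 FPKM in Hepa1-6. In all, 96 protein-coding genes with a mean of at least 10 FPKM in Hepa1-6 were listed at 0 in CT26, and 55 with that level in CT26 were listed at 0 in Hepa1-6.

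Interferon-stimulated genes were higher in CT26 almost throughout. Of 35 listed, 32 were tested, all 32 had a higher mean in CT26, 26 were called higher and 0 lower, and the median log2 difference was 1.90. Among all genes tested, 12.5% were called higher. Isg15, a ubiquitin-like modifier (ENSMUSG00000035692, chromosome 4, 156199424 to 156200818), had 64.8, 47.2 and 75.9 FPKM in CT26 and 1.11, 1.15 and 1.01 FPKM in Hepa1-6. Ifit1, which binds foreign RNA, had 20.02, 14.02 and 23.3 FPKM in CT26 and 0.116, 0.0383 and 0.0194 FPKM in Hepa1-6. The CT26 libraries varied more than those of Hepa1-6 but never overlapped with them, and the log2 differences were 4.90 (SE 0.163, limma adjusted p = 3.98e-07) for Isg15 and 4.22 (SE 0.172, limma adjusted p = 1.05e-06) for Ifit1. Oas3, a sensor that activates RNA decay, had 13.2, 9.70 and 15.97 FPKM in CT26 and 0.0374, 0.0618 and 0 FPKM in Hepa1-6. All libraries of CT26 again stood above those of Hepa1-6. Irf7, a transcription factor that amplifies the response, had 7.67, 5.64 and 9.19 FPKM in CT26 and 0.271, 0.214 and 0.138 FPKM in Hepa1-6. Usp18, which damps the receptor, was not called, at 14.3 ± 4.97 FPKM in CT26 and 10.04 ± 0.105 FPKM in Hepa1-6 (limma adjusted p = 0.138).

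The interferon genes moved together between the CT26 libraries. The second CT26 library was the lowest of the 3 for 30 of the 32 genes tested, against 33.1% of all genes tested. The first and the third were each the lowest for 1 of the 32, against 36.4% and 30.5% of all genes tested. Summed over the list, the genes reached 864, 698 and 987 FPKM in the CT26 libraries, against 318, 312 and 305 FPKM in the Hepa1-6 libraries. Without the second CT26 library 27 members were called higher, and without the third 25. The groups did not overlap, with CT26 higher, for 31 of the 32 genes, against 40.3% of all genes tested. Oas, Ifit, Gbp and Irgm genes have close copies, and how reads shared by copies were counted is not given in the sources used here.

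The stretches before the starts of Isg15 and Ifit1 are shown because they hold matches to a promoter element of interferon-stimulated genes. They come from RefSeq (GRCm38.p6), read 5′ to 3′ on the strand of the gene and ending at the base before the start. Capitals mark matches, on either strand, to GAAA followed after any 2 bases by a second GAAA, the core of the interferon-stimulated response element, and in Isg15 the 3 matches overlap each other.
Isg15, chr4:156200819-156200938, minus strand: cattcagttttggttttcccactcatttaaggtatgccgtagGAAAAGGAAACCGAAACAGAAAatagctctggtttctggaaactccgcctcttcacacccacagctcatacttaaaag
Ifit1, chr19:34640769-34640888, plus strand: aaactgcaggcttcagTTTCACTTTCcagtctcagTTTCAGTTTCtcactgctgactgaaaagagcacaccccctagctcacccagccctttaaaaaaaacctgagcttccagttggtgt
Isg15 held 3 matches and Ifit1 held 2. Within 250 bases before the start, 3.21% of the 8577 genes tested that have a RefSeq promoter entry held the motif, against 5.69% of those called higher in CT26 and 3.03% of those called lower. In the interferon list, 13 of 25 promoters held it, and 12 of the 21 whose genes were called. A match describes the letters only and shows no binding.

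Single genes of antigen presentation and surface ligands of immune cells were called in both directions. Of 25 genes of MHC class I presentation, 22 were tested, with 3 called higher and 1 called lower in CT26, no larger a share than the 25.5% called among all genes tested. H2-K1, a classical heavy chain, had 23.4, 26.0 and 20.4 FPKM in CT26 and 0.0611, 0 and 0.0156 FPKM in Hepa1-6. H2-D1, the other classical chain, had 124, 117 and 127 FPKM in CT26 and 133, 127 and 131 FPKM in Hepa1-6, and its groups differed by -0.08 on the log2 scale (limma adjusted p = 0.0768). B2m, the light chain, averaged 582 ± 17.8 FPKM in CT26 and 721 ± 7.25 FPKM in Hepa1-6 (SD, n = 3 each). H2-K1 was thus close to 0 in every Hepa1-6 library while H2-D1 and B2m were abundant in both lines. Heavy chain genes are near-identical and differ between mouse strains, and their values are uncertain where reads could fit several of them. Tap2, a peptide transporter, had 11.9, 11.8 and 13.8 FPKM in CT26 and 1.96, 1.84 and 1.64 FPKM in Hepa1-6. H2-T23, a nonclassical chain that NK cell receptors read, was called lower in CT26, at 0.176 ± 0.0778 FPKM against 5.20 ± 0.746 FPKM in Hepa1-6.

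Of 26 checkpoint and costimulatory ligands, 16 were tested, with 3 called higher and 6 called lower in CT26. Calls in either direction made up 25.5% of all genes tested. Cd274, the ligand PD-L1, had 0.933, 0.702 and 0.911 FPKM in CT26 and 4.79, 4.43 and 5.38 FPKM in Hepa1-6 (log2 difference -1.67, SE 0.0841, limma adjusted p = 2.95e-06). Pdcd1lg2, the second ligand of the same receptor, was listed at 0 in CT26, against 15.1, 15.8 and 15.97 FPKM in Hepa1-6. Both PD-1 ligands were thus lower in CT26 in every library. Tnfsf4, the ligand of OX40, was listed at 0 in CT26, against 11.8, 12.4 and 12.1 FPKM in Hepa1-6, whereas Tnfsf9, the ligand of 4-1BB, had 7.92, 8.80 and 8.97 FPKM in CT26 and 0.0410, 0.0847 and 0 FPKM in Hepa1-6. Cd80, which engages CD28 and CTLA-4, had 7.04, 6.04 and 5.30 FPKM in CT26 and 0.317, 0.181 and 0.282 FPKM in Hepa1-6. Cd47, a signal against phagocytosis, was not called, at 11.9 ± 0.237 FPKM in CT26 and 6.995 ± 1.67 FPKM in Hepa1-6.

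Secreted signals were also split, with 6 of 25 tested chemokines and cytokines called higher and 12 called lower in CT26, out of 44 listed. Over all genes tested, the shares were 12.5% higher and 13.0% lower. Ccl2, which attracts monocytes, had 5.77, 4.32 and 7.58 FPKM in CT26 and 99.7, 92.6 and 103 FPKM in Hepa1-6. Cxcl16, a chemokine made as a membrane protein, averaged 0.00319 ± 0.00553 FPKM in CT26 and 14.9 ± 1.33 FPKM in Hepa1-6, and Vegfc, a lymphatic growth factor, was listed at 0 in CT26, against 16.2, 15.8 and 16.6 FPKM in Hepa1-6. In the other direction, Ccl5, which attracts T cells, had 7.91, 5.37 and 9.70 FPKM in CT26 and 0.550, 1.12 and 1.14 FPKM in Hepa1-6. Csf1, the growth factor of macrophages, had 68.6, 67.2 and 71.95 FPKM in CT26 and 26.4, 24.9 and 27.4 FPKM in Hepa1-6 (log2 difference 1.37). Tgfb1 averaged 4.11 ± 0.442 FPKM in CT26 and 18.2 ± 0.221 FPKM in Hepa1-6, while its relative Tgfb3 averaged 6.57 ± 0.131 FPKM in CT26 and 0.0700 ± 0.0494 FPKM in Hepa1-6, so these ligands of the same receptors were called in opposite directions. The call of Cxcl10, higher in CT26 with a log2 difference of 1.08, was lost without the third CT26 library, and that of Ccl7 (1.06) without the first.

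Several feedback targets of Wnt signalling were close to 0 in CT26 and abundant in Hepa1-6. Of 31 listed Wnt targets and regulators, 21 were tested, with 1 called higher and 11 called lower in CT26, at a median log2 difference of -1.67. Over all genes tested, 12.5% were called higher and 13.0% lower. Axin2, a negative regulator that the pathway induces (chromosome 11, 108920349 to 108950783), had 0.00935, 0.0105 and 0.0257 FPKM in CT26 and 51.2, 53.7 and 50.8 FPKM in Hepa1-6, a log2 difference of -5.70 (SE 0.0449, limma adjusted p = 1.53e-09). Sp5, a zinc finger target, was listed at 0 in CT26, against 67.5, 67.97 and 63.6 FPKM in Hepa1-6. Tcf7, a partner of beta-catenin, had 0, 0.0191 and 0 FPKM in CT26 and 63.4, 62.7 and 60.99 FPKM in Hepa1-6. All CT26 libraries lay near 0 for these 3 genes, and the Hepa1-6 libraries lay between 50.8 and 68.0 FPKM. Nkd1, an inhibitor of the pathway, averaged 0.00219 ± 0.00378 FPKM in CT26 and 22.5 ± 0.432 FPKM in Hepa1-6. Lgr5, a receptor of R-spondins that marks intestinal stem cells, was listed at 0 in CT26, against 5.24, 5.67 and 5.20 FPKM in Hepa1-6. Dkk2, a secreted antagonist, was the 1 member called higher, with 4.54, 5.48 and 4.92 FPKM in CT26 and 0.0712, 0.0958 and 0.0557 FPKM in Hepa1-6. The core components Ctnnb1 and Apc were not called. Ctnnb1, the gene of beta-catenin, averaged 75.2 ± 5.50 FPKM in CT26 and 105 ± 1.33 FPKM in Hepa1-6, and Apc, which marks beta-catenin for decay, averaged 2.74 ± 1.21 FPKM in CT26 and 3.15 ± 1.73 FPKM in Hepa1-6 (limma adjusted p = 0.819).

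The start of Sp5 is shown as the only listed Wnt promoter that held the letters CTTTGAT, the core that TCF and LEF factors read. It comes from RefSeq (GRCm38.p6), read 5′ to 3′ and ending at the base before the start, with the match in capitals.
Sp5, chr2:70474803-70474922, plus strand: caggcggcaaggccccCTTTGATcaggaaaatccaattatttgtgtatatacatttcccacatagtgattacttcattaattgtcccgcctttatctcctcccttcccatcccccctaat
The motif, on either strand within 250 bases before the start, was in 2.84% of the genes tested with an entry, in 1 of 19 promoters of the Wnt list and in 1 of the 7 whose genes were called.

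Markers used for cancer stem cells and members of the TGF-beta and BMP pathway were called in both directions. Calls in either direction made up 25.5% of all genes tested. Of 24 stem cell markers, 16 were tested, with 3 called higher and 7 called lower in CT26. Sox2, a pluripotency factor, had 11.9, 11.5 and 10.8 FPKM in CT26 and was listed at 0 in Hepa1-6. Cd24a, a surface sialoglycoprotein, was listed at 0 in CT26, against 89.5, 86.5 and 93.4 FPKM in Hepa1-6. Aldh1a1, an enzyme that makes retinoic acid, had 0.865, 0.653 and 1.03 FPKM in CT26 and 166, 161 and 179 FPKM in Hepa1-6 (log2 difference -6.52). Cd44, the hyaluronan receptor, was below the 2-fold limit, at 55.2 ± 1.41 FPKM in CT26 and 80.4 ± 2.13 FPKM in Hepa1-6. Of 29 TGF-beta and BMP genes, 24 were tested, with 5 called higher and 7 called lower in CT26. Bmp4 and Bmp7, ligands, averaged 0.00697 and 0.0167 FPKM in CT26, against 10.9 and 10.8 FPKM in Hepa1-6, while Ltbp1, which holds TGF-beta in the matrix, averaged 22.4 ± 0.108 FPKM in CT26 and 0.171 ± 0.0276 FPKM in Hepa1-6.

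Both sterol acyltransferases, the enzymes of which the study's title names SOAT1, were expressed in CT26 and near 0 in Hepa1-6. Soat1 (ENSMUSG00000026600, chromosome 1, 156424525 to 156474331), which esterifies cholesterol in most tissues, had 12.1, 12.2 and 12.5 FPKM in CT26 and 0.131, 0.158 and 0.130 FPKM in Hepa1-6. Soat2 (ENSMUSG00000023045, chromosome 15, 102150526 to 102163469), the enzyme of liver and intestine, had 12.9, 13.03 and 14.0 FPKM in CT26 and 0.157, 0.162 and 0.277 FPKM in Hepa1-6. Every CT26 library stood above every Hepa1-6 library for both genes, and the log2 differences were 3.54 (SE 0.0471, limma adjusted p = 7.53e-09) for Soat1 and 3.58 (SE 0.0642, limma adjusted p = 2.49e-08) for Soat2. The title also names a hydroxycholesterol and its receptor GPR132. Gpr132 was too low to test in both lines, with 0.144, 0.211 and 0.259 FPKM in CT26 and 0.355, 0.872 and 0.602 FPKM in Hepa1-6. Cyp11a1, which cuts the side chain of cholesterol by way of hydroxylated sterols, was also too low to test, at 0.0139, 0.0120 and 0.0485 FPKM in CT26 and 0.549, 0.548 and 0.416 FPKM in Hepa1-6. Cyp27a1, a mitochondrial sterol hydroxylase, was called lower in CT26, with 0, 0.0174 and 0 FPKM in CT26 and 4.83, 4.07 and 4.56 FPKM in Hepa1-6, and Ch25h, another sterol hydroxylase, was listed at 0 in all 6 libraries.

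Genes of cholesterol synthesis were called about as often as all genes. Of 25 genes of synthesis and SREBP2 control, 24 were tested, with 4 called higher and 2 called lower in CT26, a share near the 25.5% of all genes tested, and a median log2 difference of 0.14. Srebf2, the main regulator, averaged 33.8 ± 1.16 FPKM in CT26 and 30.4 ± 2.54 FPKM in Hepa1-6, and was not called. Insig1, which retains that regulator in the endoplasmic reticulum, was called higher in CT26, at 27.9 ± 1.02 FPKM against 7.19 ± 0.828 FPKM in Hepa1-6. The call of Pmvk, higher in CT26 with a log2 difference of 1.05, was lost without the third library of either line. Of 29 genes of sterol esterification, efflux and oxysterols, 20 were tested, with 5 called higher and 3 called lower in CT26. Plin2, the coat protein of lipid droplets, averaged 26.5 ± 0.845 FPKM in CT26 and 77.4 ± 4.14 FPKM in Hepa1-6, and Abca1, the exporter of cholesterol, was not called, at 3.95 ± 0.303 FPKM in CT26 and 5.79 ± 0.727 FPKM in Hepa1-6.

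**Figure D3:**
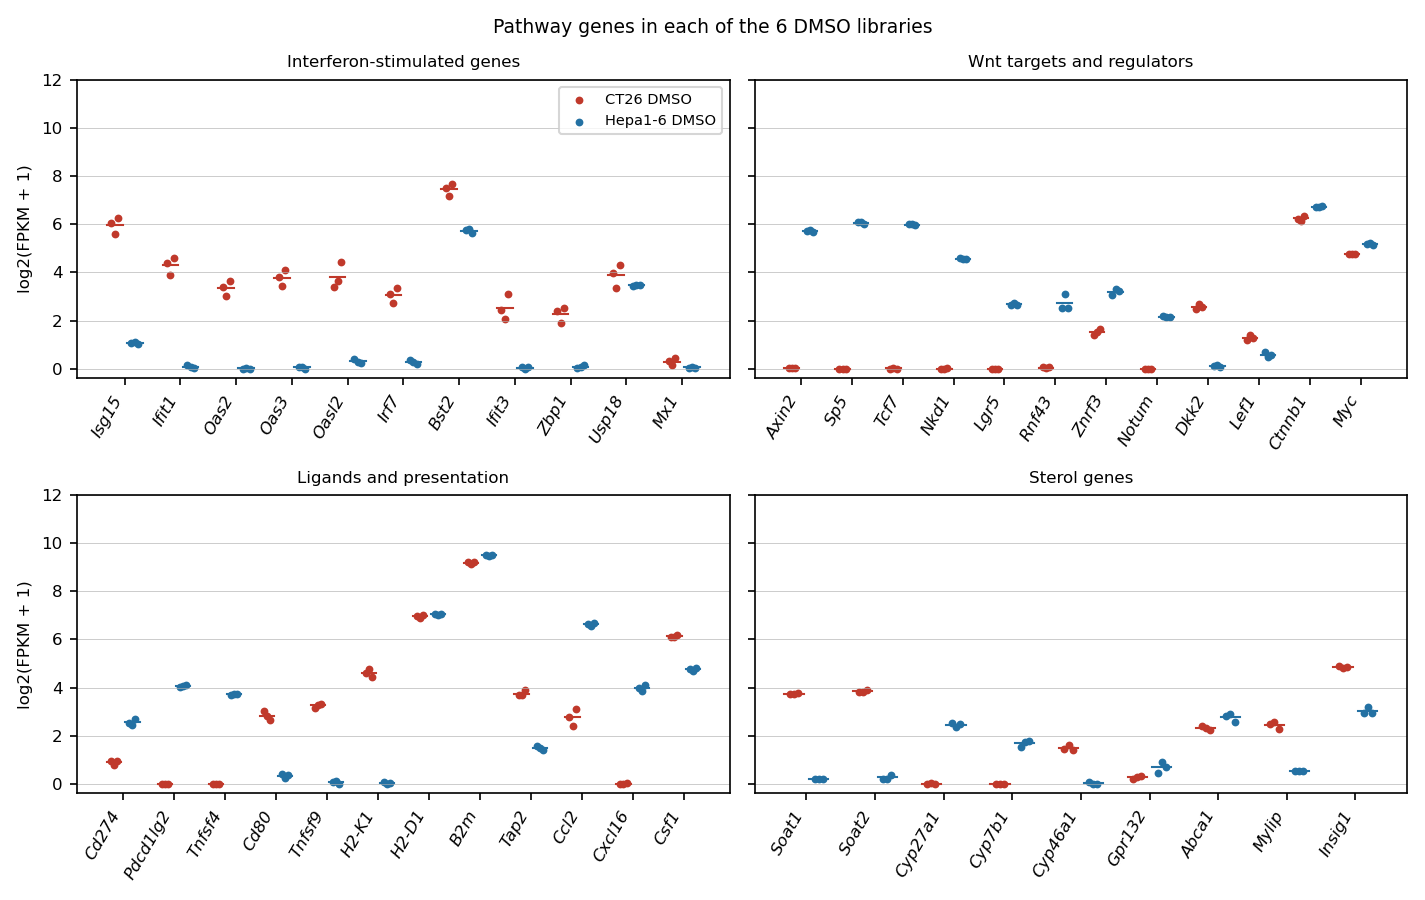
Expression of pathway genes in each of the 6 libraries as log2(FPKM + 1), with the 3 CT26 libraries left of the 3 Hepa1-6 libraries for each gene and a line at the mean. Isg15, Ifit1, Oas3, Soat1, Soat2 and H2-K1 were high in CT26, and Axin2, Sp5, Tcf7 and both PD-1 ligands were high in Hepa1-6.

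Detoxification and transport genes were called in both directions. Of 33 xenobiotic and glutathione genes, 24 were tested, with 3 called higher and 6 called lower in CT26, where 25.5% of all genes tested were called. Cyp1a1, induced by aryl hydrocarbons, had 0, 0.0207 and 0.0339 FPKM in CT26 and 16.6, 16.3 and 18.4 FPKM in Hepa1-6. Nqo1, a quinone reductase, averaged 8.09 ± 1.34 FPKM in CT26 and 2.24 ± 0.245 FPKM in Hepa1-6 and was called higher in CT26. Of 19 drug and organic ion transporters, 10 were tested, with 3 called higher and 4 called lower in CT26. Abcc2, the canalicular export pump of hepatocytes, was listed at 0 in CT26, against 23.7, 24.9 and 23.3 FPKM in Hepa1-6. Abcc1, its relative with wide tissue range, averaged 7.80 ± 0.0595 FPKM in CT26 and 2.76 ± 0.0578 FPKM in Hepa1-6 and was called higher in CT26.

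Replication and mitosis genes held few calls, whereas some inhibitors and cyclins of the cell cycle had large gaps. None of 24 DNA replication genes was called, where 25.5% of all genes tested were, and the median log2 difference was 0.06, although 23 of the 24 passed the limma adjusted p alone, as 78.0% of all genes tested did. Of 23 mitosis genes, all tested, 2 were called higher in CT26 (Ccna2 and Kif20a) and 0 lower, at a median log2 difference of 0.41. Of 27 tumour suppressor and oncogene loci, 25 were tested, with 1 called higher and 5 called lower in CT26, a share near that of all genes tested. Cdkn2a, a locus of cell cycle inhibitors, was listed at 0 in all CT26 libraries, against 35.1, 41.6 and 34.6 FPKM in Hepa1-6 (GRCm38 chromosome 4, 89274471 to 89294653). Cdkn2b beside it, a related inhibitor, was listed at 0 in CT26, against 33.0, 33.3 and 38.5 FPKM in Hepa1-6. Mtap, an enzyme gene at the same locus, had 49.8, 52.6 and 49.9 FPKM in CT26 and 71.5, 72.5 and 69.7 FPKM in Hepa1-6, so it was abundant in both lines. Egfr, a growth factor receptor, had 0.00908, 0.0519 and 0.0250 FPKM in CT26 and 24.5, 24.3 and 21.8 FPKM in Hepa1-6. Ccnd2, a cyclin of the G1 phase, had 23.2, 23.2 and 24.3 FPKM in CT26 and was listed at 0 in Hepa1-6, whereas Ccnd1 averaged 155 ± 5.10 FPKM in CT26 and 239 ± 0.739 FPKM in Hepa1-6. Trp53, the gene of p53, averaged 41.5 ± 3.05 FPKM in CT26 and 77.8 ± 4.95 FPKM in Hepa1-6, and was not called. Of 26 oncofetal and imprinted genes, 8 were tested, with 2 called higher and 4 called lower in CT26. Hmga2, a chromatin protein of embryonic cells, averaged 50.5 ± 3.99 FPKM in CT26 and 1.42 ± 0.122 FPKM in Hepa1-6, while Igf2bp3, an RNA-binding protein, averaged 0.0225 ± 0.0146 FPKM in CT26 and 9.01 ± 0.470 FPKM in Hepa1-6.

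Enzymes that exist in tissue forms were set side by side, since FPKM are per length. Pkm, the pyruvate kinase of proliferating cells and muscle, had 441, 476 and 441 FPKM in CT26 and 313, 307 and 279.8 FPKM in Hepa1-6, while Pklr, the liver and red cell form, had 0, 0 and 0.0146 FPKM in CT26 and 9.44, 8.89 and 8.82 FPKM in Hepa1-6. Hepa1-6 thus expressed the liver form, at a level far below the general form. Hk2, a hexokinase of muscle and of many tumours, averaged 14.3 ± 0.328 FPKM in CT26 and 14.6 ± 0.762 FPKM in Hepa1-6. Ldha, which makes lactate, averaged 582 ± 14.8 FPKM in CT26 and 296 ± 7.63 FPKM in Hepa1-6, just under the 2-fold limit (log2 difference 0.97), and Ldhb was listed at 0 in all 6 libraries. Other families held called members. Bcat1 and Bcat2, the cytosolic and mitochondrial aminotransferases of branched-chain amino acids, averaged 17.03 and 7.36 FPKM in CT26, against 0.00366 and 0.00933 FPKM in Hepa1-6, so that both forms were near 0 in Hepa1-6. Fabp5, a fatty acid binding protein, was listed at 0 in CT26, against 45.9, 44.9 and 48.1 FPKM in Hepa1-6, and Fabp1, the liver form, was listed at 0 in all libraries. Pck2, the mitochondrial form of a gluconeogenic enzyme, averaged 17.3 ± 0.741 FPKM in CT26 and 3.98 ± 0.335 FPKM in Hepa1-6, and Pck1, the cytosolic form of liver, was listed at 0 in all libraries.

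**Figure D4:**
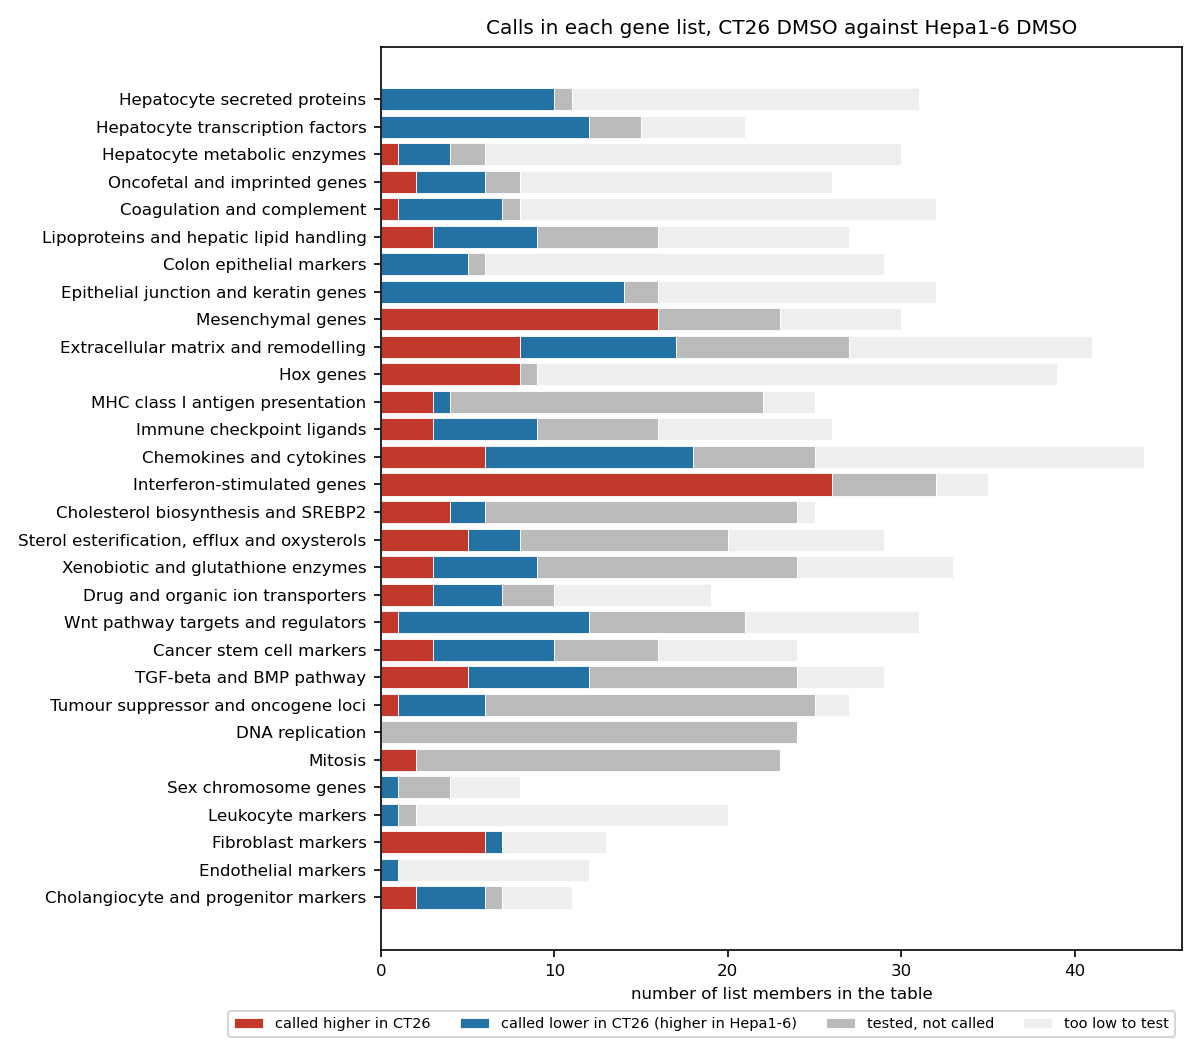
Number of members of each of 30 gene lists called higher in CT26, called lower in CT26, tested but not called, and too low to test. The epithelial, hepatocyte secreted, hepatocyte factor and colon lists held calls lower in CT26 and 0 higher, and the interferon, mesenchymal and Hox lists held calls higher in CT26 and 0 lower, with 0 called in either direction among the 24 DNA replication genes.

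The same lines were measured in other libraries that the DMSO comparison did not use. In the same table, 3 CT26 and 3 Hepa1-6 libraries were exposed to stk. There, 9286 of 12259 genes tested (75.7%) passed the adjusted p alone and 3183 (26.0%) were called between the lines, with 1542 higher (12.6%) and 1641 lower (13.4%) in CT26. Of the genes called higher under DMSO, 1388 were also called higher under stk, which was 89.8% of the DMSO calls and 90.0% of the stk calls. Of those called lower, 1437 were shared, 90.0% of the DMSO calls and 87.6% of the stk calls. No gene was called in opposite directions. The log2 differences correlated across 12074 genes with a Pearson r of 0.987 and a Spearman rho of 0.966, where the genes share libraries, lines and normalization and are not independent replicates.

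In the second table, CT26 carried a hairpin against luciferase (shLucif) and Hepa1-6 a scrambled hairpin, and cells were collected 24 hours after seeding. The hairpin differed between the lines, and the batch date differed from that of the DMSO libraries, so the size of a difference mixes line, hairpin and date. Of 12415 genes tested, 10156 (81.8%) passed the adjusted p alone and 3681 (29.6%) were called, 1747 higher (14.1%) and 1934 lower (15.6%) in CT26. Shared with the DMSO libraries were 1154 genes called higher, which was 74.6% of the DMSO calls and 66.1% of the hairpin calls, and 1288 called lower, 80.7% and 66.6%. Again no gene was called in opposite directions, and the correlation across 11945 genes was 0.917 (Pearson) and 0.827 (Spearman).

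Isg15 had 116, 116 and 111 FPKM in CT26 with shLucif and 1.43, 1.03 and 1.40 FPKM in Hepa1-6 with the scrambled hairpin, and 30 interferon genes were called higher in CT26. Soat2 had 58.7, 61.9 and 59.2 FPKM in CT26 with shLucif and 0.390, 0.578 and 0.592 FPKM in Hepa1-6 with the scrambled hairpin, a log2 difference of 5.33 against 3.58 under DMSO. Axin2 had 0.0104, 0.0105 and 0.0112 FPKM in CT26 with shLucif and 32.2, 30.1 and 33.2 FPKM in Hepa1-6 with the scrambled hairpin. Sox9, a progenitor factor called lower in CT26 under DMSO with a log2 difference of -2.996, had 9.11, 9.39 and 10.2 FPKM in CT26 with shLucif and 15.1, 16.7 and 16.6 FPKM in Hepa1-6 with the scrambled hairpin, a difference of -0.70. Of the cholesterol synthesis genes, 0 were called higher and 9 lower in CT26 in the hairpin libraries, 3 higher and 3 lower under stk, and 4 higher and 2 lower under DMSO. Hmgcs1, the first dedicated enzyme, had a log2 difference of -1.998 in the hairpin libraries, -0.36 under stk and -0.36 under DMSO. Whether the comparisons differ from each other was not tested, and the hairpin table was normalized separately.

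**Figure D5:**
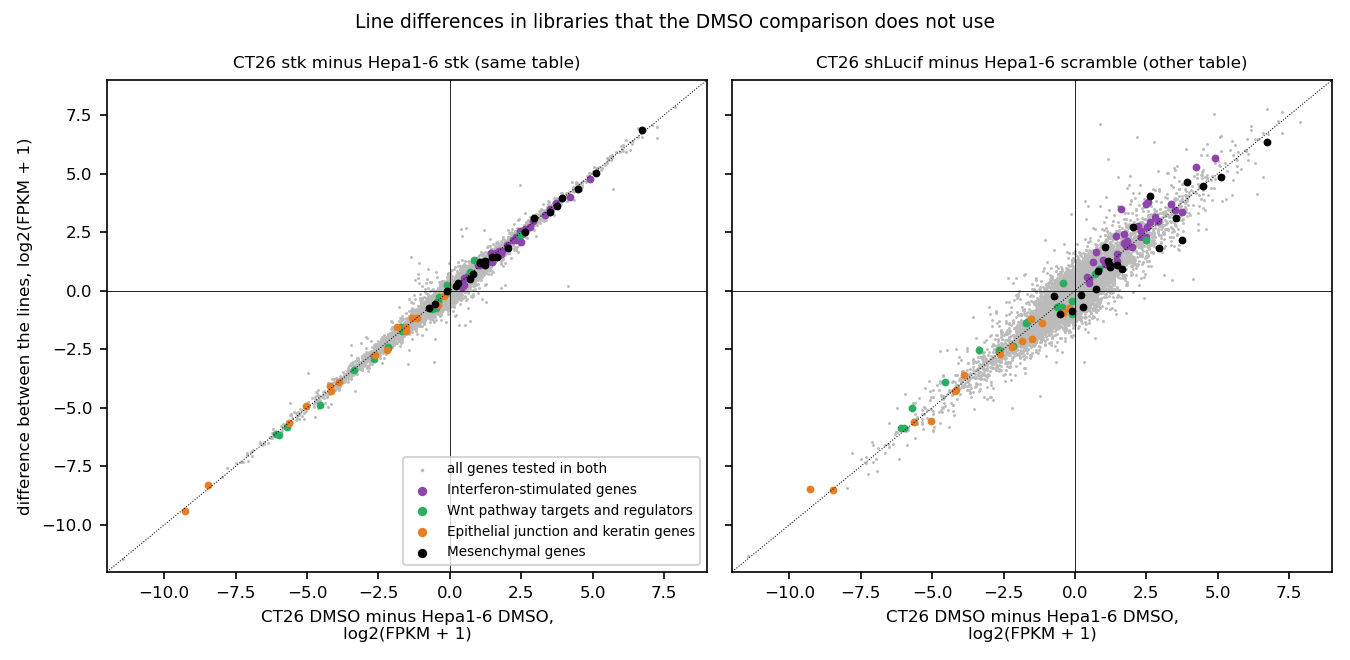
Log2 differences between CT26 and Hepa1-6 in the stk libraries (left) and in the hairpin control libraries (right), on the vertical axes, against the difference under DMSO on the horizontal axis, 1 point per gene tested in both. Points lie along the dotted line of equal difference, more closely for stk (Pearson r of 0.987) than for the hairpin libraries (0.917), and every interferon and epithelial list member tested in both lies on the same side of 0 in both.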

How the data were processed

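RNA sequencing libraries of cultured CT26 and Hepa1-6 cells were compared, with 3 libraries per group. Total RNA was extracted with TRIzol and sequenced in pairs on an Illumina HiSeq, and reads were trimmed with Skewer, per the labels' protocols. A SMARTer kit was used for certain samples, which the labels do not name. The authors deposited FPKM values in 1 table per experiment. The submitters' processing notes list HISAT2, STAR, DESeq2, edgeR and the build GRCm38, while the sources used here do not say which tool made the values, in which version and with which annotation. The names of the tables are swapped between the experiments, so columns were assigned by their headers, and 21 columns that match no label were not used. Depth per library is unknown, so no count test was run.

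Values were tested as log2(FPKM + 1) with limma 3.58.1 in R 4.3.3 (empirical Bayes with a mean-variance trend), on genes that reached 1 FPKM in 3 or more of the 6 libraries, with Benjamini-Hochberg adjustment over all genes tested. A call needed an adjusted p under 0.05 and a difference of at least 2-fold, always as CT26 minus Hepa1-6. In exact permutation tests, 3 libraries against 3 cannot give a two-sided p below 0.1, so none was run. The fit was first tested on simulated data with known answers, with 200 changed genes per fold, none of them low in Hepa1-6. The call found 0.5% of changes of 1.5-fold, 51.5% of 2-fold and 97.5% of 4-fold. A gene that was not called can therefore still differ. The stk libraries and the hairpin controls (shLucif in CT26, scramble in Hepa1-6) were tested in the same way.

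The 30 gene lists and the members named were chosen with earlier results of these data known. The text names up to 15 protein-coding genes at each end, up to 6 called members per list and direction, the genes of 17 isozyme families and the sterol and Cdkn2 genes. Cebpa, Fn1, Irf7 and Tgfb1, and the members that were not called, were added after their values were seen. Some genes that this rule takes in are counted in the lists but not reported here by name. Positions are those of GENCODE M21, which held 55154 of the 55335 gene identifiers, and promoter sequences are from RefSeq (GRCm38.p6). Alternatives tried were other pseudocounts, filters and scalings, protein-coding genes alone, all groups of a table in 1 model, a replicate block, a test against a 2-fold difference and each library left out.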

Additional observations from a re-analysis of the deposited data

How the results depend on the processing

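Of the 221 named genes tested under DMSO, the 203 that were called kept their direction under every alternative that tested them. The alternatives tested 182 of the 221 under the 5 FPKM filter, 220 with protein-coding genes alone and all 221 under the others. Genes that were not called could change direction. Mat2a, for instance, averaged lower in CT26 only through the second Hepa1-6 library, at 79.3 FPKM against 47.96 and 49.8 FPKM in the others. Raising the filter to 5 FPKM, which tests fewer genes (7990 under DMSO), gave 1951 calls under DMSO (972 higher and 979 lower in CT26), 1984 under stk (974 higher and 1010 lower) and 2395 in the hairpin libraries (1205 lower), and 14 interferon genes called higher in place of 26. Testing against a 2-fold difference, a stricter question, left 2410 genes past the adjusted p under DMSO, 2387 under stk and 2858 in the hairpin libraries. It left 21 interferon genes, and 16 of the 203 named calls were lost, among them Ccna2 (log2 difference 1.13) and Gys1 (1.05). The other alternatives kept DMSO calls between 2704 (protein-coding genes only) and 4503 (libraries rescaled to a sum of 1000000), with 47.3% to 50.3% of calls higher in CT26 over every setting. Leaving out 1 library gave 3144 to 3159 calls under DMSO, and Gys1 and Abcb1b lost their calls without the second CT26 library, Pmvk and Cxcl10 without the third, Ccl7 without the first, and Pmvk and Abcb1b without the third Hepa1-6 library. With the replicate number as a block, 3144 genes were called under DMSO (1546 higher, 1598 lower). Deviations of same-numbered libraries correlated at -0.0566, -0.0846 and -0.000491 under DMSO, against -0.0367 to 0.0887 for differently numbered ones. The numbers thus showed no sign of pairing, which 3 libraries per line cannot exclude.

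The comparison rests on 1 line per tissue and on 3 libraries per line whose source cultures are not labelled, without read totals. Low genes are the least certain, since 1 FPKM is the pseudocount and counting error is unknown. Genes with near-identical copies (MHC class I, Oas, Gstm and Zfp genes) depend on how shared reads were counted.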

Other observations

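Xist, the RNA that silences 1 X chromosome in female cells, had 0.0311, 0.0225 and 0.0121 FPKM in CT26 and 39.2, 41.9 and 41.9 FPKM in Hepa1-6, and without strand information its reads cannot be told apart from those of its antisense partner Tsix. The Y-linked genes Ddx3y, Eif2s3y, Uty and Kdm5d were listed at 0 in all 6 libraries. Erdr1, the 1 protein-coding gene tested that the annotation places on Y, was called higher in CT26, with 12.3, 12.4 and 12.7 FPKM in CT26 and 4.80, 4.74 and 5.91 FPKM in Hepa1-6 (log2 difference 1.14), and was named after its values were seen. Whether the reads of Erdr1 came from a Y chromosome was not tested. Of 320 protein-coding genes tested on X, 64 were called higher and 31 lower in CT26. Of all 10667 protein-coding genes tested, 1305 were called higher and 1398 lower. Of 8 listed sex chromosome genes, 4 were tested, with 0 called higher and 1 called lower in CT26. Of 11 cholangiocyte and progenitor markers, 7 were tested, with 2 called higher and 4 called lower in CT26.

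Calls also lay next to each other along chromosomes, where 12.5% of all genes tested were called higher and 13.0% lower in CT26. Stretches were listed where at least 6 neighbouring tested genes were called in the same direction. They were picked by their calls, so they describe places and test nothing. Between 4803391 and 8454797 on chromosome 5 (GRCm38), 9 neighbouring tested genes were all called higher in CT26, among them Cdk14, a cyclin-dependent kinase, Steap1 and Steap2, metalloreductases, and Dbf4, which activates the kinase that fires replication origins. A stretch of 8 zinc finger genes was called higher between 147132038 and 147809788 on chromosome 4, where near-identical copies make the values uncertain. A stretch of 6 genes from 148152800 to 148594993 on chromosome 4 that holds Mtor, the growth kinase, was also called higher. So were 6 genes from 118875520 to 121283744 on chromosome 14 and 6 genes from 114146535 to 114460591 on chromosome 5. The stretch from 90603076 to 90893115 on chromosome 5, with the chemokine genes Cxcl1, Cxcl3, Cxcl5, Cxcl15 and Ppbp, held 6 genes called lower in CT26. Whole chromosomes shifted by less: the median log2 difference of 357 protein-coding genes tested on chromosome 12 was 0.35 under DMSO, 0.35 under stk and 0.46 in the hairpin libraries, and that of 893 protein-coding genes on chromosome 11 was -0.30, -0.33 and -0.29. The number of gene copies was not measured, and its part in these values was not tested.

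Actb, the cytoskeletal actin often used to scale other values, had 1330.0, 1367 and 728 FPKM in CT26 and 894, 705 and 684 FPKM in Hepa1-6. The third CT26 library lay near the Hepa1-6 libraries and the other CT26 libraries lay above them. Slc25a4, Tmsb4x and Serpinh1, which are expressed in many cell types, were listed at 0 in all Hepa1-6 libraries under DMSO. In Hepa1-6 with the scrambled hairpin they averaged 0.136, 0.110 and 0.141 FPKM, so they were near 0 there as well. CT26 with shLucif averaged 168, 217 and 128 FPKM for the same genes.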
